A study of Mus musculus with 10 samples.

Results

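The 9 genes described are mouse genes for protease inhibitors of myeloid cells: the stefins Stfa1, Stfa2, Stfa3, Stfa2l1 and Cstb, the cystatins Cst3 and Cst7, and the secreted antiproteases Wfdc17 and Slpi. They were chosen by their signals in these same samples, so their levels are given as a description and without a test. The rule took every probe set annotated to a listed symbol. Of the 45101 probe sets on the array, 9 carry a listed symbol and stand for 8 of the 9 genes. Stfa2 has no probe set, Cstb has 2, and the probe set of Stfa1 is also annotated to its paralog Cstdc5, so transcripts of these paralogs cannot be told apart. All 9 probe sets passed the filter on low values, which asked for a signal over 369.3, the 40th percentile of the whole table, on 3 or more of the 10 arrays. That of Stfa3 passed through the 3 NUP98-NSD1 arrays alone and therefore had to differ between groups.

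RNA came from mouse marrow progenitors that oncogenes had immortalized, and was read on Affymetrix Mouse Genome 430 2.0 arrays, 1 array per culture. All cultures were derived with stem cell factor and without GM-CSF. The groups were MLL-ENL with 1 array, NUP98-NSD1 with 3 clones, HoxA9+Meis1 with 3 clones and HoxA9 with 3 clones. MLL-ENL joins a part of the histone methyltransferase MLL to a part of a transcription elongation factor. NUP98-NSD1 joins a part of a nucleoporin to a part of the histone methyltransferase NSD1. HoxA9 and its DNA-binding cofactor Meis1 are homeobox transcription factors. The labels call the cells myeloid and do not say whether clones came from separate animals, so the spread between clones may be partly technical. The myeloid label was checked against markers. The summed signal of 5 primary granule genes lay between 390700 and 957400 on every array, and 0 of 5 T cell markers passed the filter. Of 6 B cell markers, 5 passed the filter. Their sum was 12180, 9158 and 2443 in HoxA9+Meis1 clones 1 to 3 and 1216 to 3118 on the other arrays. The hybridization controls, 18 probe sets for transcripts added to each sample, averaged 14.01 to 14.13 on the log2 scale on MLL-ENL and NUP98-NSD1 arrays and 13.18 to 13.42 on HoxA9+Meis1 and HoxA9 arrays. NUP98-NSD1 against HoxA9 or HoxA9+Meis1 therefore crosses these 2 sets of arrays, and array set and oncogene cannot be told apart there. The comparison of HoxA9+Meis1 with HoxA9 lies within a set, as does that of MLL-ENL with NUP98-NSD1. Shifting all arrays to a common median would move the median difference of all genes to 0.06 for NUP98-NSD1 against HoxA9 (as deposited, -0.14), to 0.03 for NUP98-NSD1 against HoxA9+Meis1 (-0.13) and to 0.28 for MLL-ENL against NUP98-NSD1 (-0.02), all on the log2 scale.

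Stefins are small intracellular inhibitors of the papain-like cysteine proteases, the lysosomal cathepsins among them. Mice carry a cluster of stefin A genes, several of which are transcribed in neutrophils, whereas stefin B (Cstb) is made in most cell types. Cystatin C (Cst3) is a secreted inhibitor of the same proteases, and cystatin F (Cst7) is an immune cell cystatin that reaches endolysosomes and can inhibit cathepsin C, which activates the serine proteases of granules. Slpi and Wfdc17 carry whey acidic protein domains. Slpi inhibits neutrophil elastase and cathepsin G, and Wfdc17 is known from activated macrophages and microglia.

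The stefin A genes lie side by side on mouse chromosome 16, where 11 genes of the family are annotated between Csta1 and Stfa3. The 200 bases before the start of 4 of them are shown because the probe sets of 3 were all highest in the NUP98-NSD1 clones. They are taken from RefSeq's promoter table (GRCm38.p6, which matched 8 of the 9 genes). Those of Stfa2l1 (chr16:36156611-36156810) and Stfa1 (chr16:36276948-36277147) are on the plus strand, and those of Stfa2 (chr16:36408364-36408563) and Stfa3 (chr16:36455393-36455592) on the minus strand. Each is written 5′ to 3′ and ends at the base before the start of the gene. Capitals mark the 2 runs of 13 bases that all 4 share.
Stfa2l1: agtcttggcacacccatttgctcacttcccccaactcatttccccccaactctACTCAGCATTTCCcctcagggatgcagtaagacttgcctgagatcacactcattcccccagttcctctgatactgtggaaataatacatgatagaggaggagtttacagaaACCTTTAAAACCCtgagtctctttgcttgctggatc
Stfa1: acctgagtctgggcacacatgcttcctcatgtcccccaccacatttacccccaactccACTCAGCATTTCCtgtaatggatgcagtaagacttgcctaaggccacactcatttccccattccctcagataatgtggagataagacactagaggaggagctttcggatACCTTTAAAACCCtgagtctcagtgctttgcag
Stfa2: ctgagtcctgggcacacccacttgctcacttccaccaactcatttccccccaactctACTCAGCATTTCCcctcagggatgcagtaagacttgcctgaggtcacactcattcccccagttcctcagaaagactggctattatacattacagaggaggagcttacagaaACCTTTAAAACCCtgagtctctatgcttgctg
Stfa3: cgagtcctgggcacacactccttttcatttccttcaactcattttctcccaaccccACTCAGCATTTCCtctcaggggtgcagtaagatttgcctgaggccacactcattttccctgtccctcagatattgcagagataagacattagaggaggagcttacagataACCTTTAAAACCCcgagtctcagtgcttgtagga

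Between pairs of these promoters, 78.3% to 88.2% of aligned bases were identical, with Stfa2l1 and Stfa2 the most alike. The marked runs were taken from these 4 windows as the longest that they share. Their presence in all 4 was therefore fixed in advance. The upstream run, ACTCAGCATTTCC, begins at -147 in Stfa2l1, -142 in Stfa1, -143 in Stfa2 and -144 in Stfa3, counted from the gene's start. On either strand it occurs in 9 of 32851 mouse promoter windows of the same length (0.0274%), those of the 4 stefins and of Csta1, Csta3, Cstdc3, Cstdc5 and Gm7260. The downstream run, ACCTTTAAAACCC, occurs in 8 windows (0.0244%), those of the 4 stefins and of Csta3, Cstdc3, Cstdc4 and Gm7260. It holds TTTAAAA, which is found on either strand in 6.13% of all windows and begins between -33 and -29 in the 4 stefins. TATAAA, present in 9.96% of all windows, was in 0 of the 8 windows of listed genes. Of binding words for myeloid and Hox factors, searched on both strands, the PU.1 core GAGGAA was in the windows of all 4 stefins and in 5 of 8 listed genes (19% of all windows). The C/EBP word TTGCNNAA was in that of Stfa1 only (7.47% of all windows), and the Hox-Pbx word TGATTNAT was in 0 of 8 (2.23%). These are matches of letters and not binding sites.

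The 3 stefin A probe sets were highest in NUP98-NSD1 cells and below the filter level in MLL-ENL and HoxA9 cells. In HoxA9+Meis1 cells the means of Stfa1/Cstdc5 and Stfa2l1 lay in between, and Stfa3 was below the filter level as well. Stfa1/Cstdc5 had a signal of 32.5 in MLL-ENL cells, of 12688, 20063 and 156381 in NUP98-NSD1 clones 1 to 3, of 6955, 2698 and 354 in HoxA9+Meis1 clones and of 80.7, 49.0 and 97.5 in HoxA9 clones. The NUP98-NSD1 clones all lay above the other arrays, and the HoxA9+Meis1 clones all lay above MLL-ENL and HoxA9. The mean of NUP98-NSD1 was 63044 ± 80917 (SD, n = 3), so the spread between clones exceeded the mean, against 3335 ± 3347 in HoxA9+Meis1 and 75.7 ± 24.6 in HoxA9 (SD, n = 3 each). In these bulk cultures fewer cells that express a gene and less RNA per cell cannot be told apart.

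Signals below the filter level give only a bound. Where every array of a group was below 369.3, that group was set to 369.3 and the fold, taken on signal + 32 from means of log2 values, is given as a minimum. Stfa1/Cstdc5 was at least 85.2-fold higher in NUP98-NSD1 than in HoxA9 cells and at least 4.85-fold higher in HoxA9+Meis1 than in HoxA9 cells. In MLL-ENL cells it was at least 85.2-fold lower than in NUP98-NSD1 cells. It was 17.6-fold higher in NUP98-NSD1 than in HoxA9+Meis1 cells, a log2 difference of 4.14. These sizes rested on which clones were included. Without NUP98-NSD1 clone 3 the bound against HoxA9 was 39.8-fold and the log2 difference from HoxA9+Meis1 3.04, and without clone 1 they were 140-fold and 4.85. The difference from HoxA9+Meis1 was 5.06 without HoxA9+Meis1 clone 1 and 2.97 without its clone 3, and the bound for HoxA9+Meis1 against HoxA9 was then 2.56-fold and 10.9-fold.

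Stfa2l1, a stefin A gene of the same cluster, had a signal of 206 in MLL-ENL cells, of 3306, 6739 and 98152 in NUP98-NSD1 clones, of 1081, 531 and 175 in HoxA9+Meis1 clones and of 16.3, 137 and 26.6 in HoxA9 clones. The order of the groups was that of Stfa1/Cstdc5, except that MLL-ENL lay within the range of HoxA9+Meis1. Stfa2l1 was at least 32.5-fold higher in NUP98-NSD1 than in HoxA9 cells, and at least 32.5-fold lower in MLL-ENL than in NUP98-NSD1 cells. Without NUP98-NSD1 clone 3 these bounds were 11.8-fold, and without clone 1 they were 64.2-fold. The log2 difference of NUP98-NSD1 from HoxA9+Meis1 was 4.69, and 3.23 without NUP98-NSD1 clone 3, 5.67 without its clone 1 and 4.04 without HoxA9+Meis1 clone 3. HoxA9+Meis1 exceeded HoxA9 by at least 1.26-fold, or 1.97-fold without HoxA9+Meis1 clone 3. Without HoxA9+Meis1 clone 1 the mean of that group was itself below the filter level, and no bound could be given.

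Stfa3, the last gene of the cluster, passed the filter level in NUP98-NSD1 cells alone. Its signal was 21.8 in MLL-ENL cells, 736, 1316 and 31161 in NUP98-NSD1 clones, 89.2, 68.4 and 55.5 in HoxA9+Meis1 clones and 64.7, 76.6 and 156 in HoxA9 clones. The ranges of HoxA9+Meis1 and HoxA9 overlapped, both below the filter level. Against both HoxA9+Meis1 and HoxA9, Stfa3 was at least 7.93-fold higher in NUP98-NSD1 clones, and at least 7.93-fold lower in MLL-ENL than in NUP98-NSD1 cells. The bound was 2.54-fold without NUP98-NSD1 clone 3, and was 16.2-fold without clone 1 and 12.2-fold without clone 2.

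**Figure D1:**
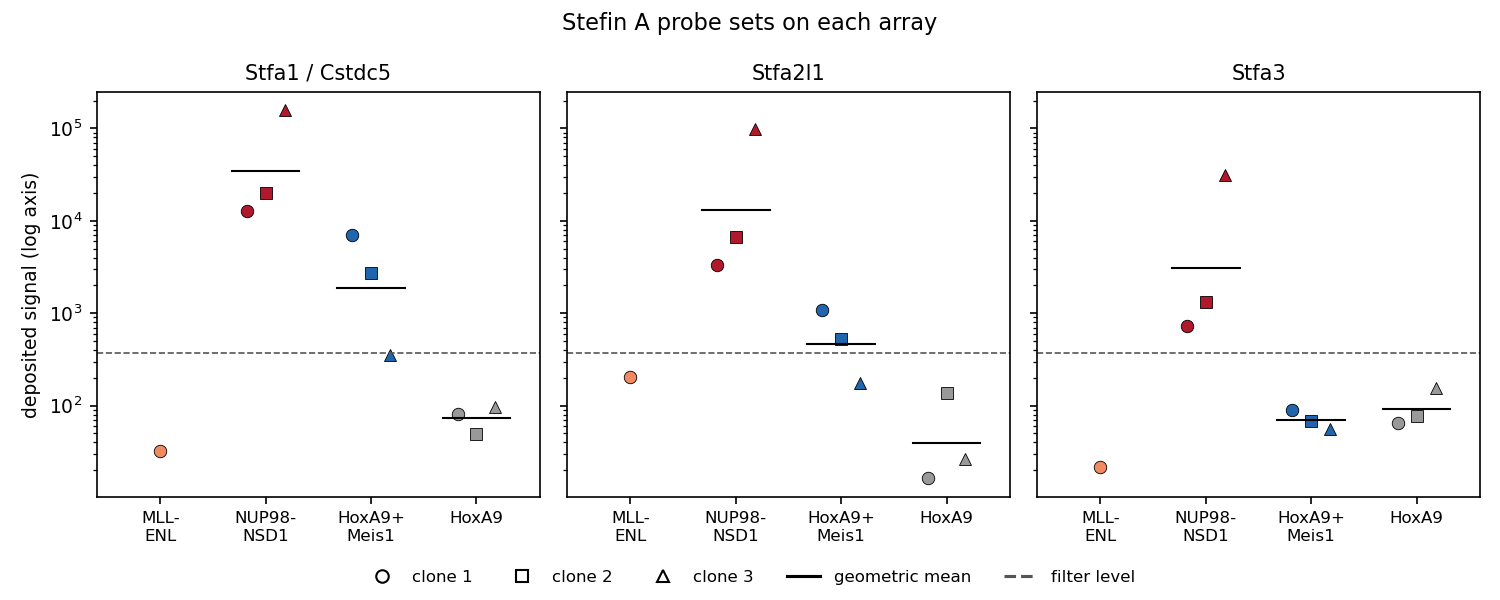
Deposited signal (log axis) of the Stfa1/Cstdc5, Stfa2l1 and Stfa3 probe sets on each of 10 arrays by oncogene. Circles, squares and triangles are clones 1, 2 and 3 of a group, MLL-ENL is 1 array drawn as a circle, solid lines are geometric means and the dashed line is the filter level of 369.3. NUP98-NSD1 clone 3 is the highest array in each panel, at 156381, 98152 and 31161.

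Other genes of the cluster with a probe set were dim. These neighbours were looked up after the values of the stefins were seen. The Csta1 probe set read 84.4 in MLL-ENL cells, 207, 304 and 377 in NUP98-NSD1 clones, 149, 109 and 37.3 in HoxA9+Meis1 clones and 99.5, 146 and 111 in HoxA9 clones. The probe set shared by Cstdc4 and Csta2 read 43.0 in MLL-ENL cells, 153, 546 and 423 in NUP98-NSD1 clones, 315, 45.2 and 25.2 in HoxA9+Meis1 clones and 14.6, 74.6 and 77.1 in HoxA9 clones. Neither passed the filter. For Csta1 the NUP98-NSD1 clones lay above all other arrays, and for Cstdc4/Csta2 they overlapped with HoxA9+Meis1.

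Within NUP98-NSD1, clone 3 was the highest and clone 1 the lowest clone on all 9 probe sets. Of all 14234 genes tested, 18.5% had clone 1 lowest and clone 3 highest. The ratio of clone 3 to clone 1 was 42.3 for Stfa3, 29.7 for Stfa2l1 and 12.3 for Stfa1/Cstdc5. For the 2 probe sets of Cstb it was 12.3 and 8.50. It was 1.99 for Slpi, 1.73 for Wfdc17, 1.49 for Cst3 and 1.22 for Cst7. Clone 3 was at least 2-fold above both other clones on the 5 stefin probe sets, and for 2.44% of all genes.

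Markers of several cell types also differed between the cultures. The summed signal of mature neutrophil markers (9 of 10 listed genes passed the filter) was 18780 in MLL-ENL cells, 439300, 508100 and 984500 in NUP98-NSD1 clones 1 to 3, 95800, 71560 and 10940 in HoxA9+Meis1 clones and 15880, 37560 and 74680 in HoxA9 clones. It had the order of Stfa1/Cstdc5 within NUP98-NSD1 and within HoxA9+Meis1. Within HoxA9 it rose to 74680 in clone 3, where the stefin A probe sets were below the filter level. Of the defining markers, none was at 0. Outside NUP98-NSD1 cells Camp, a granule peptide of neutrophils, read at most 117 and Cxcr2 at most 230, below the filter level. Camp and Cxcr2 thus passed the filter through the NUP98-NSD1 arrays alone. The other markers of this list passed that level on some arrays outside NUP98-NSD1. S100a8 reached 60118 in HoxA9 clone 3, and S100a9 reached 36682 and Ngp 11961 in HoxA9+Meis1 clone 1. The sum for mast cells and basophils (6 of 6 markers) was 3755 in MLL-ENL cells, 231900, 219700 and 59870 in NUP98-NSD1 clones, 15730 to 25890 in HoxA9+Meis1 clones and 6854 to 11240 in HoxA9 clones. Within NUP98-NSD1 this sum was lowest in clone 3, opposite to the stefins. Eosinophil markers (2 of 5 past the filter) summed to 541 in MLL-ENL cells, 13280, 9620 and 2030 in NUP98-NSD1 clones, 183 to 435 in HoxA9+Meis1 clones and 241 to 291 in HoxA9 clones. Megakaryocyte markers (2 of 4) summed to 2121 in MLL-ENL cells, 16280, 12250 and 4004 in NUP98-NSD1 clones, 3598 to 3719 in HoxA9+Meis1 clones and 3434 to 3990 in HoxA9 clones. The eosinophil markers, Prg2 and Epx, passed the filter through the NUP98-NSD1 arrays alone, so their sum had to be highest there. On the other arrays it holds only signals below the filter level. The megakaryocyte sum was highest in the NUP98-NSD1 clones, as the stefin A probe sets were. Among these clones, both sums were lowest in clone 3. The part of these cell types in the stefin levels was not tested.

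Stefin B was lower in NUP98-NSD1 than in HoxA9 cells, and higher in MLL-ENL than in NUP98-NSD1 cells. The brighter Cstb probe set read 55660 in MLL-ENL cells, 1816, 3482 and 22248 in NUP98-NSD1 clones, 13689, 20699 and 27962 in HoxA9+Meis1 clones and 27278, 48754 and 50532 in HoxA9 clones. The other Cstb probe set read 28181 in MLL-ENL cells, 1352, 2529 and 11486 in NUP98-NSD1 clones, 5200.3, 9033 and 12323 in HoxA9+Meis1 clones and 11633, 23315 and 24093 in HoxA9 clones. On both, every NUP98-NSD1 clone lay below every HoxA9 clone, MLL-ENL lay above all other arrays, and NUP98-NSD1 overlapped with HoxA9+Meis1 through its clone 3.

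The log2 difference of Cstb between NUP98-NSD1 and HoxA9 was -2.95 on the brighter and -2.44 on the other probe set. Without NUP98-NSD1 clone 3 these were -4.00 and -3.31, and without clone 1 they were -2.20 and -1.79. Against HoxA9+Meis1 the NUP98-NSD1 clones differed by -1.93 and -1.28, with -2.97 and -2.15 without clone 3 and -1.17 and -0.62 without clone 1. MLL-ENL exceeded NUP98-NSD1 by 3.41 and 3.03 on the log2 scale, by 4.45 and 3.91 without NUP98-NSD1 clone 3, and by 2.65 and 2.38 without clone 1. HoxA9+Meis1 and HoxA9 overlapped on both probe sets, with log2 differences of -1.03 and -1.16. Among clones of NUP98-NSD1, Cstb and the stefin A genes were thus highest in the same culture, although between NUP98-NSD1 and HoxA9 their differences were opposite in sign.

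The cystatins varied little beside the stefins. Cst7 read 20878 in MLL-ENL cells, 38353, 45174 and 46672 in NUP98-NSD1 clones, 25295, 29635 and 22023 in HoxA9+Meis1 clones and 22148, 22187 and 25474 in HoxA9 clones. All NUP98-NSD1 clones lay above all other arrays, while HoxA9+Meis1 and HoxA9 overlapped. Its mean was 43400 ± 4434 in NUP98-NSD1, against 25651 ± 3818 in HoxA9+Meis1 and 23270 ± 1909 in HoxA9 (SD, n = 3 each). The log2 difference was 0.90 for NUP98-NSD1 against HoxA9, 0.76 for NUP98-NSD1 against HoxA9+Meis1 and -1.05 for MLL-ENL against NUP98-NSD1.

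Cst3 was bright on every array. It read 65503 in MLL-ENL cells, 36202, 38141 and 54113 in NUP98-NSD1 clones, 35969, 41971 and 37122 in HoxA9+Meis1 clones and 46632, 44192 and 52549 in HoxA9 clones. MLL-ENL was the highest array, and NUP98-NSD1 overlapped with both HoxA9+Meis1 and HoxA9. The HoxA9+Meis1 clones all lay below the HoxA9 clones, by -0.32 on the log2 scale. The difference of NUP98-NSD1 from HoxA9 was -0.18 and turned to 0.01 with arrays shifted to a common median. That from HoxA9+Meis1 was 0.14 and turned to -0.04 without NUP98-NSD1 clone 3.

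Wfdc17, a whey acidic protein known from macrophages, separated HoxA9 cells from all other cultures. Its signal was 11927 in MLL-ENL cells, 5029, 8322 and 8689 in NUP98-NSD1 clones, 11484, 18943 and 20285 in HoxA9+Meis1 clones and 74.9, 163 and 499 in HoxA9 clones. The groups did not overlap, apart from MLL-ENL, which lay within the range of HoxA9+Meis1. The means were 7347 ± 2015 in NUP98-NSD1 and 16904 ± 4742 in HoxA9+Meis1, against 246 ± 224 in HoxA9 (SD, n = 3 each).

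On the log2 scale Wfdc17 differed by 6.20 between HoxA9+Meis1 and HoxA9, by 5.01 between NUP98-NSD1 and HoxA9, and by 5.74 between MLL-ENL and HoxA9, which share the HoxA9 arrays. Only 1 of the 3 HoxA9 clones, clone 3, was above the filter level, so these sizes rest in part on signals below it. Without HoxA9 clone 3, HoxA9+Meis1 was at least 41.0-fold and NUP98-NSD1 at least 17.9-fold above HoxA9. The log2 difference was -1.20 for NUP98-NSD1 against HoxA9+Meis1 and 0.74 for MLL-ENL against NUP98-NSD1. Monocyte and macrophage markers (8 of 8 past the filter) summed to 67300 in MLL-ENL cells, 35560 to 45970 in NUP98-NSD1 clones, 66820 to 107700 in HoxA9+Meis1 clones and 21490 to 33500 in HoxA9 clones. That sum was lowest in HoxA9, as Wfdc17 was, and none of the 8 markers was at 0. Single markers did not all have this order. Cd14 read 3144 to 6814 in NUP98-NSD1 and 5453 to 7172 in HoxA9 clones. Csf1r read 6953 in HoxA9+Meis1 clone 3, below all HoxA9 clones (8654 to 17945). The part of monocytes and macrophages in the level of Wfdc17 was not tested.

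Slpi, the inhibitor of neutrophil elastase, was bright on all arrays. It read 18941 in MLL-ENL cells, 17912, 24677 and 35560 in NUP98-NSD1 clones, 44832, 35818 and 40191 in HoxA9+Meis1 clones and 27275, 34067 and 29731 in HoxA9 clones. The HoxA9+Meis1 clones lay above all other arrays, the nearest being NUP98-NSD1 clone 3, and NUP98-NSD1 overlapped with MLL-ENL and HoxA9. The log2 difference was 0.41 for HoxA9+Meis1 against HoxA9, -0.68 for NUP98-NSD1 against HoxA9+Meis1, -0.27 for NUP98-NSD1 against HoxA9 and -0.40 for MLL-ENL against NUP98-NSD1.

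**Figure D2:**
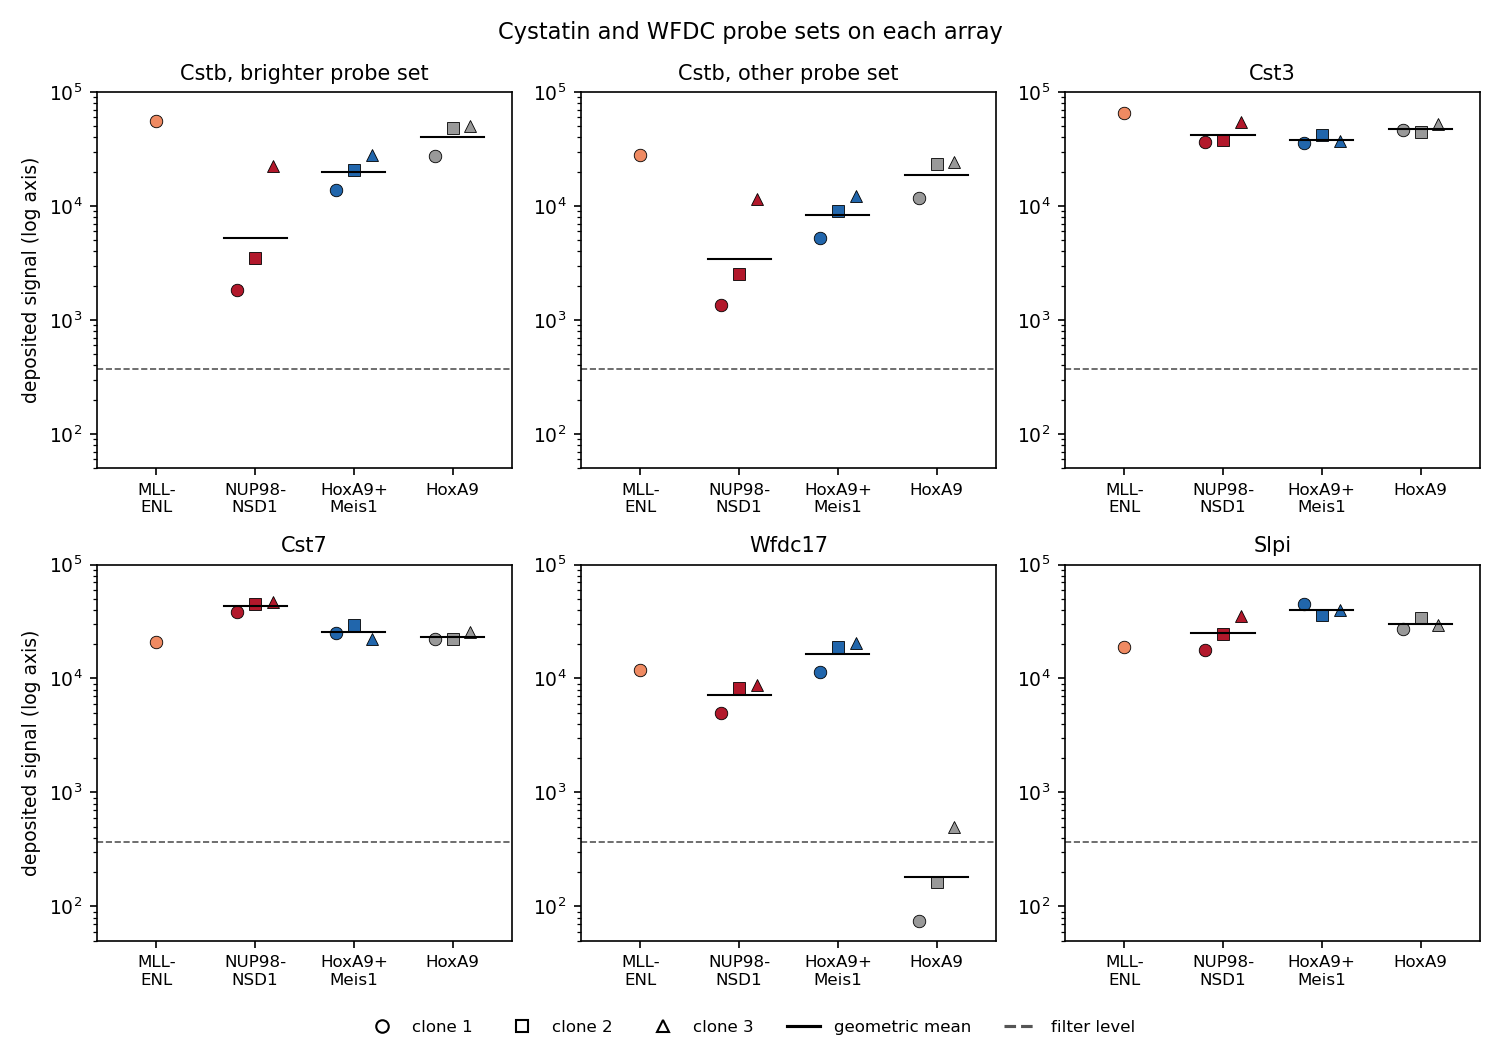
Deposited signal (log axis) of both Cstb probe sets, Cst3, Cst7, Wfdc17 and Slpi on each of 10 arrays by oncogene. Circles, squares and triangles are clones 1, 2 and 3 of a group, MLL-ENL is 1 array drawn as a circle, solid lines are geometric means and the dashed line is the filter level of 369.3. Cstb is lowest in NUP98-NSD1 clones 1 and 2, and Wfdc17 is near or below the filter level only in HoxA9 clones (74.9 to 499).

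Counted over the 9 probe sets, the NUP98-NSD1 clones lay above all HoxA9 clones on 5, below them on 2 and overlapped on 2. Of the 14234 genes tested 46.0% did not overlap in that comparison, 18.5% higher and 27.5% lower. NUP98-NSD1 lay above HoxA9+Meis1 on 4, below on 2 and overlapped on 3 (46.7% of all genes did not overlap, 19.9% higher and 26.9% lower). HoxA9+Meis1 lay above HoxA9 on 4, below on 1 and overlapped on 4 (31.2% of all genes, 14.6% higher and 16.6% lower). The MLL-ENL array lay above NUP98-NSD1 on 4, below on 4 and within its range on 1 (58.6% of all genes lay outside that range, 27.3% higher and 31.4% lower). Nothing is read from these counts, since the genes were listed for how they varied over these arrays.

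**Figure D3:**
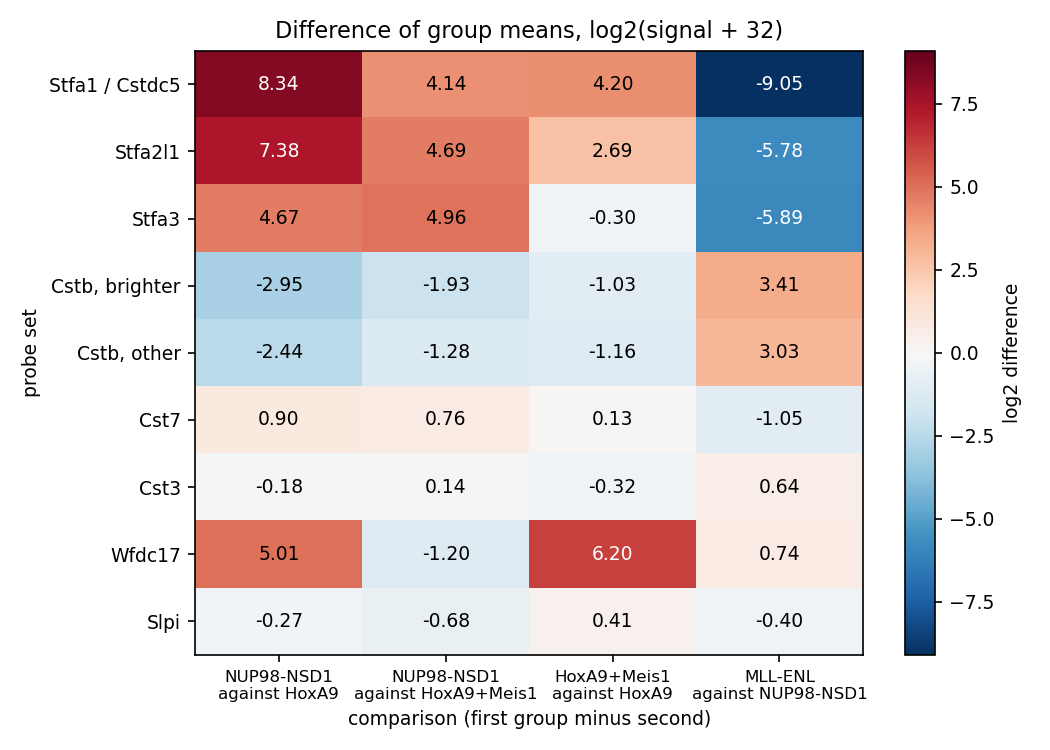
Differences of group means on the log2(signal + 32) scale for the 9 probe sets (rows) in 4 comparisons (columns), each the group named above minus the group named below it; red is higher and blue lower. Values of Stfa1, Stfa2l1 and Stfa3 that involve HoxA9 or MLL-ENL, and those of Stfa3 in HoxA9+Meis1, rest on signals below the filter level, as do in part those of Wfdc17 that involve HoxA9 and those of Stfa1 and Stfa2l1 that involve HoxA9+Meis1. The stefin A rows and the Cstb rows have opposite signs in NUP98-NSD1 against HoxA9, from 4.67 to 8.34 and from -2.95 to -2.44.

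Genes with the most similar profile were ranked by the root mean square difference between log2 profiles, each centred on its own mean over the 10 arrays, among 14227 other genes. Members whose profile spanned under 2 log2 units (Cst3, Cst7 and Slpi) were not ranked. Stfa1/Cstdc5 was nearest to S100a9, a calprotectin subunit, at 1.08, to Ngp, a neutrophil granule protein, at 1.20 and to Ifitm1, an interferon-induced membrane protein, at 1.78. The median over all genes was 3.83 for that probe set. Stfa2l1 was nearest to Ngp at 1.04, to the cathelicidin gene Camp at 1.41 and to the ficolin gene Fcnb at 1.43 (median 3.31). Stfa3 was nearest to Fcnb at 0.95, to the chitinase-like gene Chil1 at 1.08 and to lactoferrin (Ltf) at 1.11 (median 2.72). Several of these genes are neutrophil granule genes, and Ngp, Camp, Ltf and S100a9 are also among the neutrophil markers summed above.

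Cstb was nearest to Gng11, a G protein gamma subunit, at 0.38, to caveolin-2 (Cav2) at 0.56 and to Sowahc at 0.66, against a median of 1.61. Its other probe set also ranked Gng11 nearest, at 0.34, then Sowahc at 0.47 and the lysosomal peptidase gene Dpp7 at 0.61 (median 1.41). Gng11 read 7013 in MLL-ENL cells, 385, 454 and 1830 in NUP98-NSD1 clones, 1811, 1773 and 3864 in HoxA9+Meis1 clones and 2989, 5785 and 7177 in HoxA9 clones. It was therefore low in NUP98-NSD1 clones 1 and 2, as Cstb was. Wfdc17 was nearest to Ctss at 0.80, to the adaptor gene Lat2 at 1.08 and to the receptor gene Gpr171 at 1.10 (median 2.76). Ctss encodes cathepsin S, a cysteine protease that cystatins inhibit. It read 22329 in MLL-ENL cells, 17077, 19390 and 17539 in NUP98-NSD1 clones, 18951, 21811 and 14288 in HoxA9+Meis1 clones and 373, 1007 and 1062 in HoxA9 clones.

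**Figure D4:**
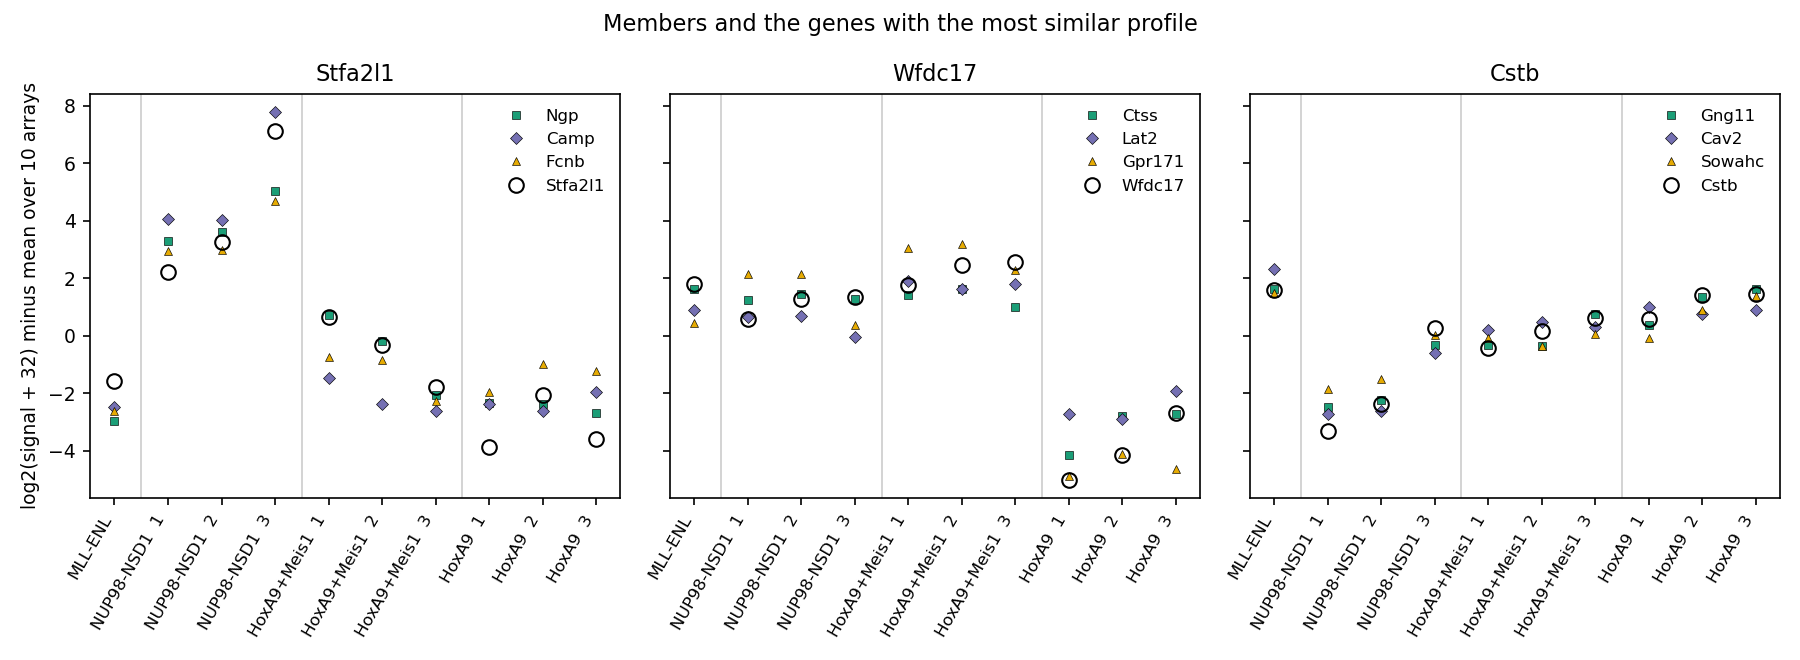
Profiles over the 10 arrays (x axis, with clone numbers) of Stfa2l1, Wfdc17 and the brighter Cstb probe set (open circles) and of the 3 genes nearest to each (filled symbols), as log2(signal + 32) minus the gene's mean over the 10 arrays. Grey lines separate the groups. The Stfa2l1 panel peaks at NUP98-NSD1 clone 3, the Wfdc17 panel is lowest in the HoxA9 clones and the Cstb panel is lowest in NUP98-NSD1 clones 1 and 2.

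Protease inhibitors outside the 9 genes moved both ways in the NUP98-NSD1 comparisons. Of 135 listed, 57 were measured, and they were tested with limma, adjusted over all 14234 genes. This list and those below were chosen with earlier results of these data known, so their shares are a description only. In NUP98-NSD1 against HoxA9 cells 8 rose and 10 fell (31.6% called, against 31.5% of all genes, 13.3% higher and 18.2% lower), with a median log2 difference of -0.31 against -0.14 for all genes. With arrays shifted to a common median the split was 8 higher and 6 lower, with 22.5% of all genes called. In NUP98-NSD1 against HoxA9+Meis1 cells 6 rose and 7 fell (22.8%, against 32.4% of all genes, 14.2% higher and 18.2% lower). With a common median 7 rose and 5 fell of 56 measured, and 23.6% of all genes were called. As deposited the median log2 difference was -0.21, against -0.13 for all genes. In HoxA9+Meis1 against HoxA9 cells 4 rose and 0 fell (7.02%, against 9.67%, of which 4.61% higher and 5.06% lower), with medians of -0.06 and -0.02. In MLL-ENL against NUP98-NSD1 cells 0 rose and 3 fell (5.26%, against 4.80%, of which 1.82% higher and 2.98% lower), with medians of -0.23 and -0.02. For MLL-ENL, with 1 array, the fit takes its spread to be that of the other cultures.

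Leaving out a clone changed some of these counts by more than 1.5 times. Between NUP98-NSD1 and HoxA9 cells they came to 10 without HoxA9 clone 2, 8 without HoxA9 clone 3 and 11 without NUP98-NSD1 clone 2. Between NUP98-NSD1 and HoxA9+Meis1 cells they came to 7 without HoxA9+Meis1 clone 1, 7 without its clone 2 and 8 without NUP98-NSD1 clone 2. In HoxA9+Meis1 against HoxA9 cells 2 were left without HoxA9 clone 2, HoxA9+Meis1 clone 1 or HoxA9+Meis1 clone 3.

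Among the cystatins outside the 9 genes, 7 of 15 were measured and limma called 0 in each of the 4 comparisons. Of all genes, limma called 31.5% in NUP98-NSD1 against HoxA9 and 32.4% in NUP98-NSD1 against HoxA9+Meis1. It called 9.67% in HoxA9+Meis1 against HoxA9 and 4.80% in MLL-ENL against NUP98-NSD1. At an unadjusted p under 0.05 there was 1 cystatin, in MLL-ENL against NUP98-NSD1 cells, and 0 in the other comparisons. The 7 were dim, with no signal over 850.2 except 2274 for Cstdc2 in NUP98-NSD1 clone 1. The lack of calls therefore does not show that they were stable. Of the 6 further stefin A paralogs listed, 0 passed the filter on a probe set of their own.

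Of the other whey acidic protein genes, 11 of 21 were measured, and the NUP98-NSD1 to HoxA9 comparison called 1 higher and 4 lower (45.5%, against 31.5% of all genes). The one that rose was Wfdc21, a secreted protein of the same family. Its signal was 1887 in MLL-ENL cells, 17675, 20171 and 44027 in NUP98-NSD1 clones, 2069, 1497 and 128 in HoxA9+Meis1 clones and 779, 663 and 3129 in HoxA9 clones. The NUP98-NSD1 clones lay above all other arrays. The log2 difference was 4.37 ± 0.90 (SE) for NUP98-NSD1 against HoxA9 (limma, adjusted p = 0.00534) and 4.97 ± 0.90 for NUP98-NSD1 against HoxA9+Meis1 (adjusted p = 0.00261). The latter rests in part on the signal of 128, below the filter level. Wfdc15a fell by 1.53 ± 0.20 on the log2 scale in NUP98-NSD1 against HoxA9 (adjusted p = 0.000562), and its fall against HoxA9+Meis1 was 1.28 ± 0.20 (adjusted p = 0.00133). In HoxA9+Meis1 against HoxA9 cells, where Wfdc17 differed most, limma called 0 of the 11 (1 at an unadjusted p under 0.05).

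Of the serpins, which trap serine proteases or in part cysteine proteases, 21 of 62 were measured. Against HoxA9, 2 rose and 5 fell in NUP98-NSD1 cells, and against HoxA9+Meis1, 1 rose and 3 fell. These were 33.3% and 19.0% of the serpins measured, against 31.5% and 32.4% of all genes, so near and below the share of all genes. Serpinb1a, an intracellular inhibitor of neutrophil serine proteases, read 66783 in MLL-ENL cells, 58822, 66974 and 122059 in NUP98-NSD1 clones, 45116, 36073 and 32438 in HoxA9+Meis1 clones and 25093, 32906 and 31831 in HoxA9 clones. It was higher in NUP98-NSD1 than in HoxA9 cells by 1.40 ± 0.24 on the log2 scale (limma, adjusted p = 0.00222), and than in HoxA9+Meis1 cells by 1.06 ± 0.24 (adjusted p = 0.0082). NUP98-NSD1 clone 3 was again the highest array. Serpinb6e fell by 1.69 ± 0.37 in NUP98-NSD1 relative to HoxA9 (adjusted p = 0.00679), and relative to HoxA9+Meis1 it fell by 1.64 ± 0.37 (adjusted p = 0.00744).

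Of the remaining inhibitors 18 of 31 were measured, with 5 higher and 1 lower in NUP98-NSD1 than in HoxA9 cells (33.3%, near the 31.5% of all genes). Reck, a membrane-anchored inhibitor of matrix metalloproteases, read 179 in MLL-ENL cells, 2248, 1304 and 2503 in NUP98-NSD1 clones, 368, 722 and 765 in HoxA9+Meis1 clones and 47.2, 24.1 and 19.7 in HoxA9 clones. It was at least 4.93-fold higher in NUP98-NSD1 than in HoxA9 cells (limma, adjusted p = 6.7e-05) and at least 1.55-fold higher in HoxA9+Meis1 than in HoxA9 cells (adjusted p = 0.00128). In MLL-ENL cells it was at least 4.93-fold lower than in NUP98-NSD1 cells (adjusted p = 0.0181). The 3 groups of clones had the order of Stfa1/Cstdc5 and Stfa2l1, and not that of Stfa3. Itih5, a relative of the inter-alpha-trypsin inhibitor heavy chains, had a log2 difference of 3.01 ± 0.25 for NUP98-NSD1 against HoxA9 (adjusted p = 5.75e-05), and of 2.17 ± 0.25 for HoxA9+Meis1 against HoxA9 (adjusted p = 0.000667). Itih5 read 309, 259 and 414 in HoxA9 clones, so these sizes rest in part on signals below the filter level. It was at least 7.10-fold lower in MLL-ENL than in NUP98-NSD1 cells (adjusted p = 0.000343). Spint2, a Kunitz-type inhibitor, fell by 3.496 ± 0.551 in MLL-ENL against NUP98-NSD1 cells (adjusted p = 0.00775).

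Cysteine cathepsins and the serine proteases of neutrophils and mast cells are proteases that such inhibitors act on. Of 24 listed, 17 were measured, and most calls in the NUP98-NSD1 comparisons were serine proteases that were higher. Gzmb, among these calls, passed the filter through the NUP98-NSD1 arrays alone. In NUP98-NSD1 against HoxA9 cells 9 rose and 1 fell (58.8%, against 31.5% of all genes), with a median log2 difference of 0.70, and in NUP98-NSD1 against HoxA9+Meis1 cells 6 rose and 1 fell (41.2%, against 32.4%), with a median of 0.68. After quantile normalization the splits were 6 higher and 2 lower, and 5 higher and 2 lower, and with a common median the second was 6 higher and 0 lower. In HoxA9+Meis1 against HoxA9 cells 2 rose and 1 fell (17.6%, against 9.67%). With a common median the split was 1 and 1 (5.37% of all genes called), and after quantile normalization 3 and 3 (10.1%). In MLL-ENL against NUP98-NSD1 cells 0 rose and 3 fell (17.6%, against 4.80%), or 1 and 3 with a common median. The medians of the last comparisons were 0.27 and 0.05. Without HoxA9 clone 3 the count in NUP98-NSD1 against HoxA9 cells was 6, and without HoxA9+Meis1 clone 3 that in HoxA9+Meis1 against HoxA9 cells was 5. The count in MLL-ENL against NUP98-NSD1 cells was 1 without HoxA9 clone 2, NUP98-NSD1 clone 1 or NUP98-NSD1 clone 2, and 6 without NUP98-NSD1 clone 3.

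Of the cysteine cathepsins 9 of 11 were measured, with 3 higher and 1 lower in NUP98-NSD1 than in HoxA9 cells (44.4%, against 31.5% of all genes). Against HoxA9+Meis1, 1 was higher and 1 lower (22.2%, against 32.4%), with a median log2 difference of -0.01. Ctss rose by 4.54 ± 0.32 (SE) on the log2 scale in NUP98-NSD1 against HoxA9 (limma, adjusted p = 2.89e-05) and by 4.55 ± 0.32 in HoxA9+Meis1 against HoxA9 (adjusted p = 3.32e-05), which share the HoxA9 clones. Between NUP98-NSD1 and HoxA9+Meis1 its difference was -0.01 ± 0.32 (adjusted p = 0.989). Ctsc, cathepsin C, the target of cystatin F, read 25512 in MLL-ENL cells, 28979, 28542 and 30025 in NUP98-NSD1 clones, 19617, 17307 and 16470 in HoxA9+Meis1 clones and 13502, 11649 and 13302 in HoxA9 clones. It was higher in NUP98-NSD1 by 1.19 ± 0.09 than in HoxA9 (adjusted p = 3.48e-05) and by 0.72 ± 0.09 than in HoxA9+Meis1 (adjusted p = 0.000403). Both Ctsc and Cst7 were thus highest in the NUP98-NSD1 clones.

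Of the serine proteases of neutrophils and mast cells 8 of 13 were measured. In NUP98-NSD1 cells 6 were higher and 0 lower than in HoxA9 cells (75.0%, against 31.5% of all genes). Against HoxA9+Meis1 cells 5 were higher and 0 lower (62.5%, against 32.4%). Both shares hold Gzmb, which passed the filter through the NUP98-NSD1 arrays alone and therefore had to differ. The list was chosen with earlier results of these data known, so these shares are a description only. Ctsg, Elane and Prtn3, higher than in HoxA9 by 0.53, 0.58 and 0.39 (log2), were among the brightest signals. The highest signal was 138637 to 162300 on HoxA9 and HoxA9+Meis1 arrays and 225137 to 268316 on NUP98-NSD1 arrays. The part of this difference in range in these calls was not tested. After quantile normalization, 6 of all target proteases were higher and 2 lower than in HoxA9. Elane, the neutrophil elastase that Slpi inhibits, read 198245 in MLL-ENL cells, 147012, 163069 and 199729 in NUP98-NSD1 clones, 16717, 25137 and 13902 in HoxA9+Meis1 clones and 114550, 116367 and 106958 in HoxA9 clones. It fell by 2.64 ± 0.19 on the log2 scale in HoxA9+Meis1 against HoxA9 (limma, adjusted p = 3.28e-05), where Slpi lay above HoxA9 in every HoxA9+Meis1 clone. Elane was higher in NUP98-NSD1 than in HoxA9+Meis1 by 3.22 ± 0.19 (adjusted p = 1.07e-05).

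Gzmb, granzyme B, was at least 42.7-fold higher in NUP98-NSD1 than in HoxA9 cells (limma, adjusted p = 0.000606) and in HoxA9+Meis1 cells (adjusted p = 0.000766). Its signal was 244 in MLL-ENL cells, 44526, 46188 and 2416 in NUP98-NSD1 clones, 111 to 190 in HoxA9+Meis1 clones and 82.5 to 167 in HoxA9 clones. Gzmb passed the filter through the NUP98-NSD1 arrays alone and therefore had to differ between groups, so its p-values are no support for a difference. Within NUP98-NSD1 it was lowest in clone 3, where the stefins were highest. Cma1, mast cell chymase, was also lowest in that clone of NUP98-NSD1, with 107 in MLL-ENL cells, 61664, 52547 and 1999 in NUP98-NSD1 clones, 212 to 1153 in HoxA9+Meis1 clones and 606 to 700.2 in HoxA9 clones. Mcpt8, a basophil protease, fell by 4.73 ± 0.87 in MLL-ENL against NUP98-NSD1 cells (adjusted p = 0.0161). Gzmb and Cma1 were called lower there too, at adjusted p = 0.0326 and 0.0316. Both calls were lost without HoxA9 clone 2 or NUP98-NSD1 clone 1 or 2, and that of Gzmb also without HoxA9+Meis1 clone 1 or 2, with p up to 0.0806 for Gzmb and 0.0803 for Cma1.

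**Figure D5:**
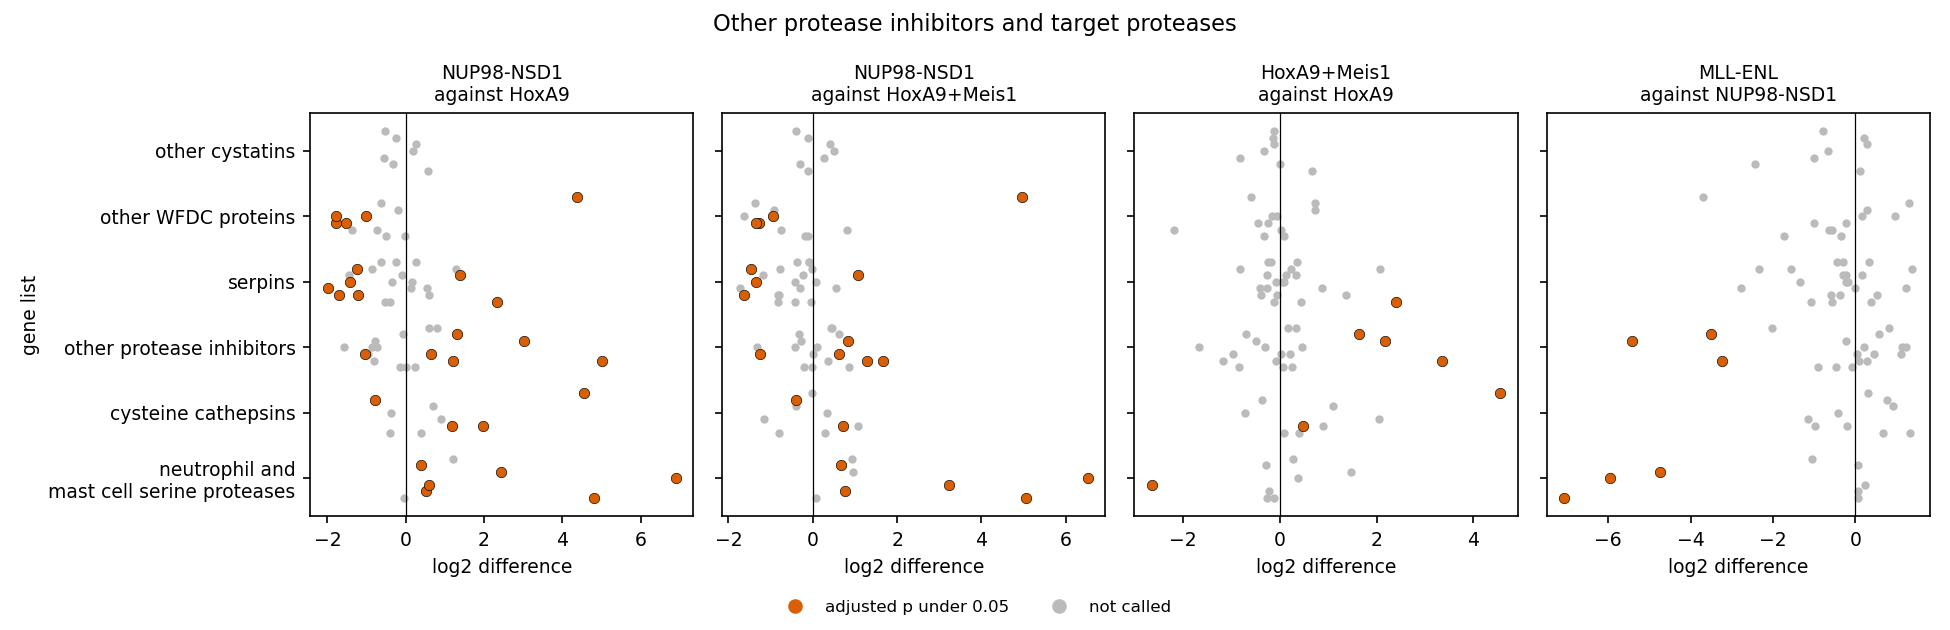
Log2 differences (x axis, first group minus second) of the measured genes of each list of other inhibitors and target proteases (rows) in 4 comparisons (panels). Each point is a gene, orange where limma's adjusted p is under 0.05 and grey otherwise; height within a row has no meaning. No other cystatin is orange in any panel, and 6 serine proteases are orange to the right of 0 in NUP98-NSD1 against HoxA9. Among these is Gzmb, which passed the filter through the NUP98-NSD1 arrays alone.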

How the data were processed

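The authors deposited 1 linear signal intensity per probe set and array, per the file headers, for 10 arrays. Which software made it is not given in the sources used here. On every array the mean, trimmed by 2% at each end, was 2500.01 to 2500.02, so the values were used as deposited. All value columns belong to a sample (0 without one). The number of arrays limits the precision.

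Values were analysed as log2(signal + 32). Symbols came from the platform annotation, updated by Entrez ID. Of 45101 probe sets, 30983 passed the filter. A gene was represented by its brightest kept probe set with 1 symbol, which gave 14234 genes. limma 3.58.1 in R 4.3.3 fitted 4 group means with an intensity trend in eBayes (6 residual degrees of freedom), and adjusted p by Benjamini-Hochberg over all genes, two-sided, calling at 0.05. Groups follow the oncogene named in each sample's title. The fit was tested on simulated data. Figures used matplotlib 3.10.9 and Python 3.11.15 throughout.

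The 9 genes and the gene lists were chosen with earlier results of these data known. Genes named from a list are among the 3 called genes with the largest difference in each direction. Of these, the text names ones called in every fit that left out a clone, a restriction chosen after the values were seen, besides Gzmb and Cma1 in MLL-ENL. Marker lists for B cells, erythroid cells and stroma were also summed. Their sums ranged from 1216 to 12180, 1892 to 3669 and 3023 to 9262 over the arrays. Motif shares count 200 bases before the start of RefSeq genes. No label ties clones of the same number together, and the number was a block only in an alternative. The other alternatives were quantile normalization, a common median, other offsets and filters, probe sets averaged per gene, no suffixed probe sets, eBayes without a trend, fits without MLL-ENL, and leaving out each clone.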

Additional observations from a re-analysis of the deposited data

How the results depend on the processing

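Of 156 counts of called list genes under an alternative, 137 were within 1.5 times the count reported. The share of all genes called often changed as well, so a changed count need not be a change relative to all genes. The range over fits that left out a clone was, for inhibitors outside the 9 genes, 8 to 18 in NUP98-NSD1 against HoxA9, 7 to 17 in NUP98-NSD1 against HoxA9+Meis1, 2 to 5 in HoxA9+Meis1 against HoxA9 and 3 to 4 in MLL-ENL against NUP98-NSD1. For target proteases it was 6 to 11, 6 to 9, 3 to 5 and 1 to 6 in the same comparisons. Without the trend in limma's eBayes, 2 inhibitors were called in HoxA9+Meis1 against HoxA9 and 0 target proteases in MLL-ENL against NUP98-NSD1. In HoxA9+Meis1 against HoxA9, quantile normalization called 6 target proteases. The clone number as a replicate block, fitted without MLL-ENL, called 5 there and moved no other list count by over 1.5 times. The block is not a paired design: over 9 same-numbered pairs, deviations from the group means correlated at -0.07 to 0.04, and 0 of 9 arrays correlated best with their own number. Of 50 differences named by the rule, 30 were called in every fit that left out a clone. Serpinb8 in NUP98-NSD1 against HoxA9 turned to 0.28 with no filter (log2, -1.995 with it) and was the 1 reversal among 971. With arrays shifted to a common median the log2 difference of Cst7 was 1.08 for NUP98-NSD1 against HoxA9 and -0.76 for MLL-ENL against NUP98-NSD1 (0.90 and -1.05 as deposited). The causes of these changes were not tested. Signals under the filter level limit the stefin A differences to bounds, and MLL-ENL has 1 array.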
